A study of Mus musculus with 12 samples.

Results

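Beside its probes for genes, the array used in this study carries probes named only by a stretch of the mouse genome. An interval of build mm9 with a strand suffix, F or R, stands in place of a transcript accession for 16194 of the 55681 non-control probes, and these region probes are described here. They were chosen by that name alone and not by any measured value. They belong to 3543 intervals, or 4610 when the strands of an interval are counted apart, with a median of 3 and at most 10 probes per interval and strand. The median interval was 7304 bases long, the shortest 62 bases and the longest 7128487 bases. Of the 3543 intervals, 1067 had probes for both strands, 1251 for F only, 1222 for R only, and 3 had no strand suffix. Intervals at most 50000 bases apart were joined, which gave 1725 loci.

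RNA came from colonic organoids, crypts of the large intestine grown in Matrigel as a culture rich in stem cells, of C57BL/6 mice. There were 3 wild-type mice and 3 VDR KO mice, in which the vitamin D receptor gene is knocked out per the genotype label. Organoids of each mouse received either EtOH vehicle or 1,25(OH)2D3 (calcitriol, the active hormone) at 100 nM, added again every 48 h, which gave 4 groups of 3 arrays. The time of treatment is 72 h in the series' design text and 62 h in the sample descriptions, and which is right was not determined. The labels give mice of the same number the same sex and age in both genotypes: number 1 is labelled male and 2 months old, number 2 female and 3 months old, and number 3 female and 2 months old. The arrays go against the labelled sex of numbers 1 and 2. Xist, the RNA of the inactive X chromosome of females, read 1.56 to 1.89 on the 4 arrays of number 1, -7.95 to -3.66 on those of number 2 and 1.13 to 1.41 on those of number 3. Eif2s3y, a Y-linked gene, read -8.27 to -7.54 in number 1, 2.69 to 2.92 in number 2 and -8.03 to -6.96 in number 3. Ddx3y, also Y-linked, read 0.56 to 0.75 in number 2 and -8.18 to -6.83 in numbers 1 and 3. The 4 arrays of a number were alike in Eif2s3y and Ddx3y, in both genotypes. The Xist value of -3.66, above background, was from the knockout calcitriol array of number 2, which read -7.98 by a second Xist probe. Numbers are used below without a sex. In bulk RNA, fewer cells of a type and less RNA per cell cannot be told apart.

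Much of the genome outside protein-coding genes is transcribed into RNA without a coding frame. Such intergenic transcripts are often short-lived, present at low levels and limited to few cell types, and many start near enhancers, the distant DNA elements that raise the transcription of genes. The vitamin D receptor is a nuclear receptor that binds DNA together with a retinoid X receptor once calcitriol is bound, and many of its binding sites lie far from gene starts. Probe sequences, the place of a probe inside its interval and a genome of build mm9 were not used here. So no sequence and no distance to a gene is given, and whether an interval overlaps a gene was not checked.

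Levels are log2 signals minus the 75th percentile of the same array, so 0 is that percentile and each unit is a doubling. That percentile lay between a signal of 580 and 791 on the 12 arrays. The median signal was 24.7 to 56.9 on 11 arrays and 89.8 on the wild-type vehicle array of mouse 2, which stands apart; its lowest signal was 7.0 and that of the wild-type vehicle array of mouse 3 was 5.81, against 2.38 to 2.96 on the other 10. All 13 colon epithelium markers, such as Epcam and Krt20, were well above background on all 12 arrays. Markers of other cell types were well above background on all 12 arrays for 2 of 5 immune, 0 of 4 fibroblast, 2 of 3 endothelial and 2 of 3 neural genes, and their part in the results was not tested. The probe for Vdr, the targeted gene, ranged from 1.13 to 2.01 in wild-type vehicle, 0.82 to 1.18 in wild-type calcitriol, -0.35 to 0.25 in knockout vehicle and -0.43 to 0.37 in knockout calcitriol organoids; the labels do not say whether it lies in the deleted part. Knockout minus wild type was -1.60 ± 0.26 with vehicle (limma adjusted p 0.321, and 0.0153 with the replicate number as a block). As a yardstick of the treatment, calcitriol raised 4 of 4 known vitamin D target genes (Cyp24a1, S100g, Trpv6, Atp2b1) in wild type and 0 of 4 in knockout organoids.

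Region probes gave a signal above background less often than the other probes of the array. The share well above background, Agilent's own call against the local background, ranged from 37.5% to 63.8% of the 16194 region probes on the 12 arrays, against 60.9% to 76.2% of the other 39487 probes. It was lower for region probes on each of the 12 arrays. In all, 4784 region probes (29.5%) were above background on all 12 arrays, 8184 on 1 to 11 arrays and 3226 (19.9%) on none. Of the other probes, 55.5% were above background on all 12 arrays and 14.3% on none. No region probe was saturated on any array.

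The number of detected regions did not separate the groups beyond their spread. In wild-type organoids 40.0%, 63.8% and 43.9% of region probes were above background with vehicle (mean 49.2% ± 12.7 SD, n = 3) and 51.0%, 50.2% and 55.1% with calcitriol (52.1% ± 2.60 SD, n = 3). In knockout organoids they were 37.5%, 38.7% and 55.5% with vehicle (43.9% ± 10.03 SD, n = 3) and 48.8%, 52.1% and 50.02% with calcitriol (50.3% ± 1.66 SD, n = 3). The vehicle arrays of both genotypes spread far more widely than the calcitriol arrays. An exact 2-sided permutation test over the 3 and 3 arrays, which cannot give a p below 0.1, gave 0.8 for calcitriol in wild type and 0.4 in knockout, and 0.5 and 0.4 for genotype with vehicle and with calcitriol. The arrays were spread over 3 slides. Knockout vehicle arrays 1 and 2 were alone on slide 1 and had the lowest shares, while slide 2 ran from 40.0% to 63.8% and slide 3 from 43.9% to 55.5%. Knockout vehicle array 3 was on slide 3 together with wild-type vehicle array 3 and 5 of the 6 calcitriol arrays; the part of the slide in these shares was not tested.

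**Figure D1:**
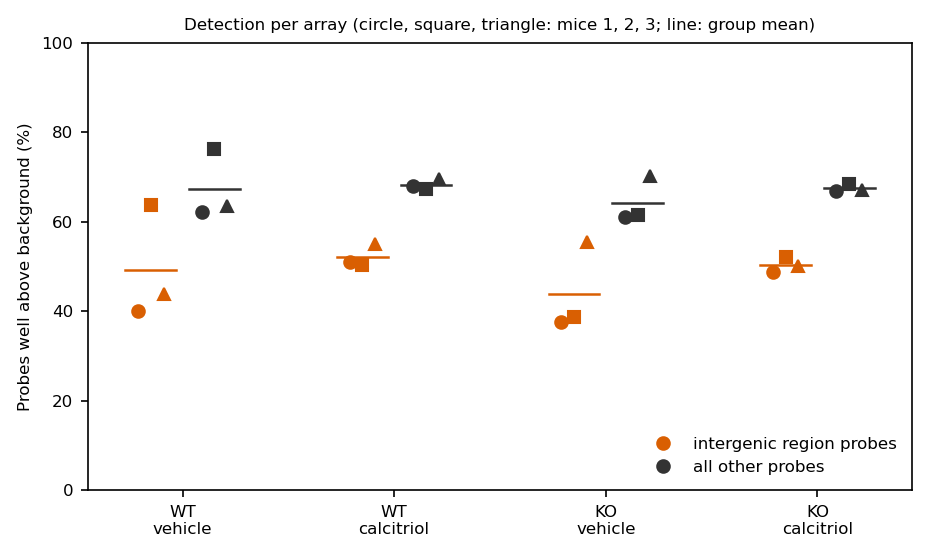
Share of probes well above background on each of the 12 arrays (vertical axis, percent) by group (horizontal axis). Values are for the region probes, labelled intergenic in the figure, and all other probes. Symbols mark mice 1, 2 and 3 and lines the mean of 3 arrays. Region probes sat between 37.5% and 63.8%, below the other probes on every array.

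In many intervals only a single strand had a probe above background on all 12 arrays. Of the 1067 intervals with probes for both strands, 415 had a probe above background on all 12 arrays for both, 197 for F alone, 243 for R alone and 212 for neither. In 95 intervals each probe of a strand, and no probe of the opposite strand, was above background on all 12 arrays. A strand without a probe above background on all 12 arrays may still have been detected on fewer arrays. Whether the strands of an interval differed more often than unrelated strands would was not tested. So these counts do not show transcription limited to a single strand. Probes of an interval often differed among themselves. Among the 3385 interval strands with at least 3 probes, every probe was above background on all 12 arrays in 353, none in 1490, and some but not all in 1542.

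For the tests, region probes had to be well above background throughout at least 1 group (3 of 3 arrays), which left 7594 of 16194. All 33406 probes of the array that passed this filter were fitted together with limma, and a probe was called at a Benjamini-Hochberg adjusted p under 0.05 over all 33406. Because the culture of each mouse was split, a fit with the mouse as a block is given beside the treatment comparisons where it changes a call. The filter keeps a dim probe through the group in which it is high, and 2827 of the 7594 were dim on at least 1 array, so their differences are no sample of all regions.

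In wild-type organoids calcitriol raised the signal of 8 region probes and lowered none. They lie in 2 places of the genome, on the forward strand of both, 5 in an interval of chromosome 3 and 3 in overlapping intervals of chromosome 8. The share called was 0.105% of the region probes tested, against a background of 0.162% of all 33406 probes. With the mouse as a replicate block 14 region probes were called, 13 higher and 1 lower, against a background of 0.802%, and 7 of the 8 were among them. The median difference over all region probes tested was -0.08, against -0.04 for other probes. With arrays scaled to their median 18 were called, 15 higher and 3 lower, among 91 over all probes. The number called rested on single arrays. It was 31 (24 of them lower), among 118 over all probes, without wild-type vehicle array 1. That left arrays 2 and 3 with the raised signal floor, and 7 of the 8 remained there. Leaving out mouse number 1, 2 or 3 in all groups gave 3, 0 and 11 calls, among 21, 2 and 97 over all probes. With the block, leaving out wild-type mouse 1, 2 or 3 gave 4, 4 and 7, among 78, 55 and 112. With the slide as a block 3 of the 8 remained, and on slide 3 alone, with 1 wild-type vehicle array, none was called.

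The interval chr3:90425270-90435820 held 5 of the 8 probes. It is 10551 bases long, and each of its 5 forward-strand probes was above background on all 12 arrays and rose with calcitriol in wild type. Probe A_30_P01021250 read -1.07, -1.15 and -0.98 in wild-type vehicle and 1.12, 1.41 and 0.96 in wild-type calcitriol organoids of mice 1, 2 and 3. In the knockout it read -1.35, -1.11 and -1.22 with vehicle and -1.34, -1.001 and -1.09 with calcitriol. The 3 wild-type calcitriol arrays were above the other 9, which overlapped with each other. The difference in wild type was 2.23 ± 0.16 (SE, n = 3 and 3), or 4.69-fold, with a limma adjusted p of 6.09e-05, and 0.08 ± 0.16 in the knockout.

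The other 4 forward probes of this interval showed the same separation. Probe A_30_P01022270 read -1.57, -1.53 and -1.56 with vehicle and 0.56, 0.91 and 0.51 with calcitriol in wild type. It read -1.66, -1.64 and -1.80, and -1.92, -1.51 and -1.69 in the knockout. The 3 wild-type calcitriol arrays were again above the other 9, and the difference was 2.21 ± 0.16 in wild type (limma adjusted p 7.12e-05). Probe A_30_P01018786 read -0.90, -0.93 and -0.71 with vehicle and 1.24, 1.43 and 0.99 with calcitriol in wild type, a difference of 2.07 ± 0.16 (limma adjusted p 7.12e-05). In the knockout it read -1.16, -0.96 and -1.06, and -0.85, -0.68 and -0.96, a difference of 0.23 ± 0.16 that did not pass. Its knockout groups met at -0.96, while its wild-type groups lay well apart.

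Probe A_30_P01024183 read -2.34, -1.82 and -2.26 with vehicle and -0.37, 0.12 and -0.43 with calcitriol in wild type, a difference of 1.91 ± 0.21 (limma adjusted p 0.00241). Mouse 2 was the highest of the 3 with vehicle and with calcitriol. In the knockout the probe read -2.38, -2.11 and -2.46, and -2.60, -2.28 and -2.40. Probe A_30_P01023502 had the smallest rise of the 5, from -0.99, -0.76 and -0.70 to 0.66, 1.01 and 0.66, a difference of 1.59 ± 0.18 (limma adjusted p 0.00294). In the knockout it read -1.29, -0.91 and -0.79, and -0.58, -0.62 and -0.94, which overlap. Averaged over its 5 probes, the interval rose by 2.00 ± 0.16 in wild type (limma adjusted p 0.000149 over 24982 averaged names, 0.000267 with the replicate block).

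**Figure D2:**
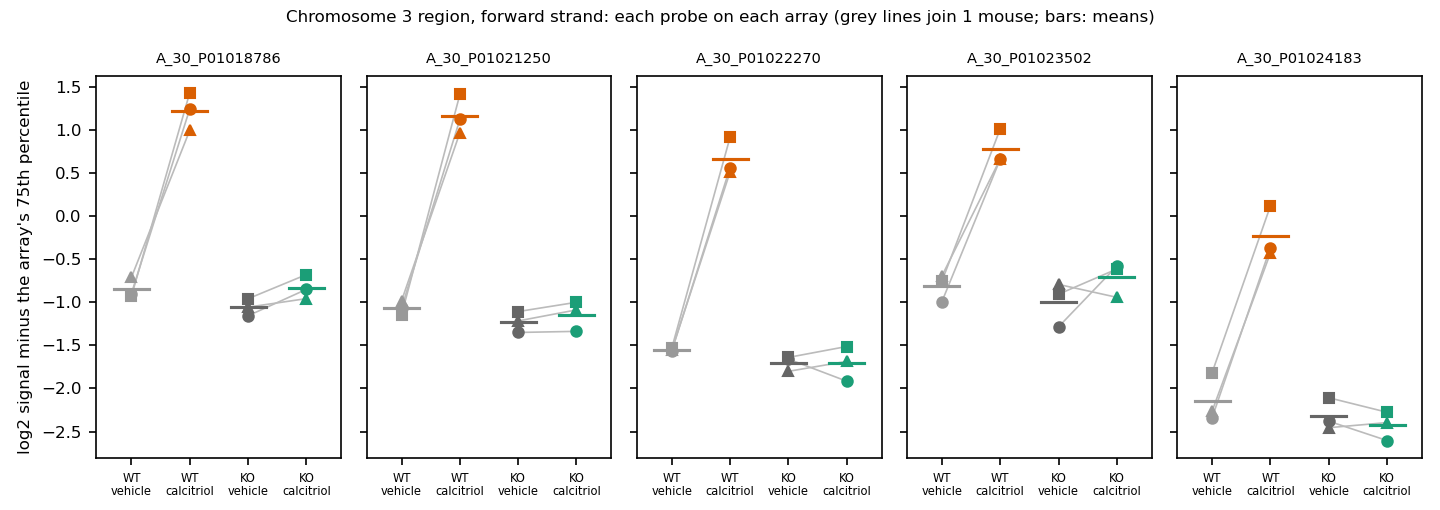
Level of each of the 5 forward-strand probes of chr3:90425270-90435820 on each array (vertical axis, log2 signal minus the array's 75th percentile) in the 4 groups, with symbols for mice 1, 2 and 3, grey lines joining the arrays of a mouse and bars for the mean of 3 arrays. For all 5 probes the 3 wild-type calcitriol arrays lie above the other 9.

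No reverse-strand probe of this interval was called. The 5 reverse-strand probes of the same interval differed by -0.37 to 1.33 in wild type and by -0.16 to 1.05 in the knockout, and none passed in either. A short interval inside it, chr3:90427029-90427674, had 3 forward probes, of which 2 were tested and differed by -1.11 and -1.27 in wild type without passing. The 2 strands were not tested against each other. The nearest other intervals on the array lie 2003846 bases before and 1629604 bases after this locus, and none of their probes was called. Their 5 tested probes differed by between -0.00 and 0.17 in wild type. On slide 3 alone, which holds all 3 wild-type calcitriol arrays but 1 wild-type vehicle array, the 5 forward probes differed by 1.47 to 2.22, with adjusted p values of 0.0958 to 0.119. Without the 2 wild-type vehicle arrays with a raised signal floor, they differed by 1.77 to 2.23; that leaves 1 wild-type vehicle array, whose spread is taken from the remaining groups.

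**Figure D3:**
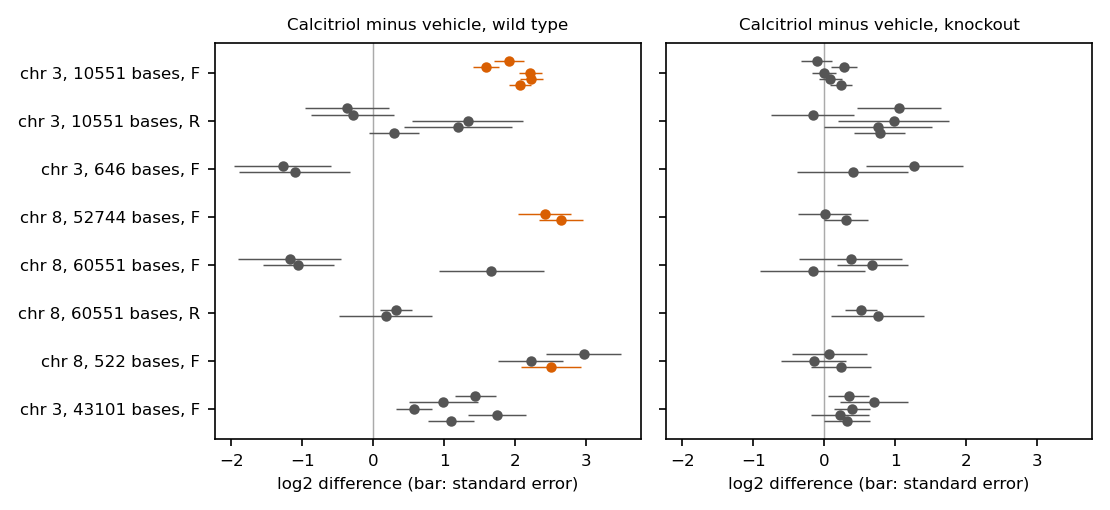
Calcitriol minus vehicle (horizontal axis, log2) for every tested probe of the responding loci and their other strand or overlapping intervals (rows; F forward, R reverse), in wild type on the left and in the knockout on the right; bars are standard errors and coloured points passed the adjusted threshold. In wild type the 5 forward probes of the long chromosome 3 interval lie at 1.59 to 2.23, and in the knockout at -0.11 to 0.28.

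The other 3 called probes lie on chromosome 8. The interval chr8:89996710-90049453, 52744 bases long, had 3 forward probes, and chr8:90048940-90049461, which begins inside its last stretch, had 3 more. Probe A_30_P01022123 of the long interval read -3.69, -2.96 and -3.29 with vehicle and -0.11, -0.66 and -1.24 with calcitriol in wild type. In the knockout it read -3.91, -3.78 and -3.35, and -3.64, -3.06 and -3.42. Wild-type calcitriol arrays were above all others, highest in mouse 1 and lowest in mouse 3. The rise was 2.64 ± 0.31 (6.25-fold, limma adjusted p 0.00352), and the difference in the knockout was 0.31 ± 0.31.

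Probe A_30_P01024770 of the same interval read -2.48, -3.31 and -2.34 with vehicle and 0.32, -0.35 and -0.87 with calcitriol in wild type. It rose by 2.42 ± 0.37 (limma adjusted p 0.0227), and differed by 0.00 ± 0.37 in the knockout, where it read -3.26, -3.54 and -2.37, and -2.97, -3.03 and -3.15. Its groups overlap in the knockout and not in wild type. The call in wild type was lost in 12 of 31 alternatives. The third probe, A_30_P01021540, was not well above background in any group on all 3 arrays and was not tested. It was above background on 1 of 12 arrays, from wild-type organoids with calcitriol.

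In the short interval chr8:90048940-90049461, probe A_30_P01024798 read -4.39, -3.08 and -2.98 with vehicle and -0.39, -0.97 and -1.59 with calcitriol in wild type, a rise of 2.50 ± 0.43 (limma adjusted p 0.0482, and 0.0612 with the replicate block, where it no longer passed). In the knockout it read -4.57, -3.65 and -3.77, and -4.05, -3.80 and -3.43. The groups did not overlap in wild type and overlapped in the knockout. The call of A_30_P01024798 in wild type was lost in 25 of 31 alternatives, among them leaving out any single array. Probe A_30_P01029453 differed by 2.22 ± 0.46 in wild type (limma adjusted p 0.157). Probe A_30_P01032532 was not well above background on any wild-type vehicle array and was so on all 3 with calcitriol, at least 5.76-fold higher (limma adjusted p 0.0706). For both, the 3 wild-type calcitriol arrays were above the 3 vehicle arrays and again in the order of mouse 1, 2 and 3.

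Another interval of the same locus, chr8:90000619-90061169, overlaps both and had no called probe. Its 3 tested forward probes differed by -1.18 to 1.67 and its 2 tested reverse probes by 0.18 and 0.32 in wild type, and none passed. The nearest other intervals lie 2482602 bases before and 1410649 bases after, with no called probe. Of the genes that the RefSeq table (GRCm38.p6) places on chromosome 8, 1 was called in wild type, Cbln1, which encodes a secreted organizer of synapses. Its probe read -6.82, -4.82 and -6.75 with vehicle, not above background, and -0.13, -1.28 and -2.19 with calcitriol, at least 11.6-fold higher (limma adjusted p 0.0226). The wild-type calcitriol arrays were again in the order of mouse 1, 2 and 3. That order is not particular to chromosome 8. Spon2 on chromosome 5 and Klk11 on chromosome 7 had it too, while Fgf15 on chromosome 7 was highest in mouse 2. The distance between Cbln1 and these intervals was not measured, as the table is on another build.

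**Figure D4:**
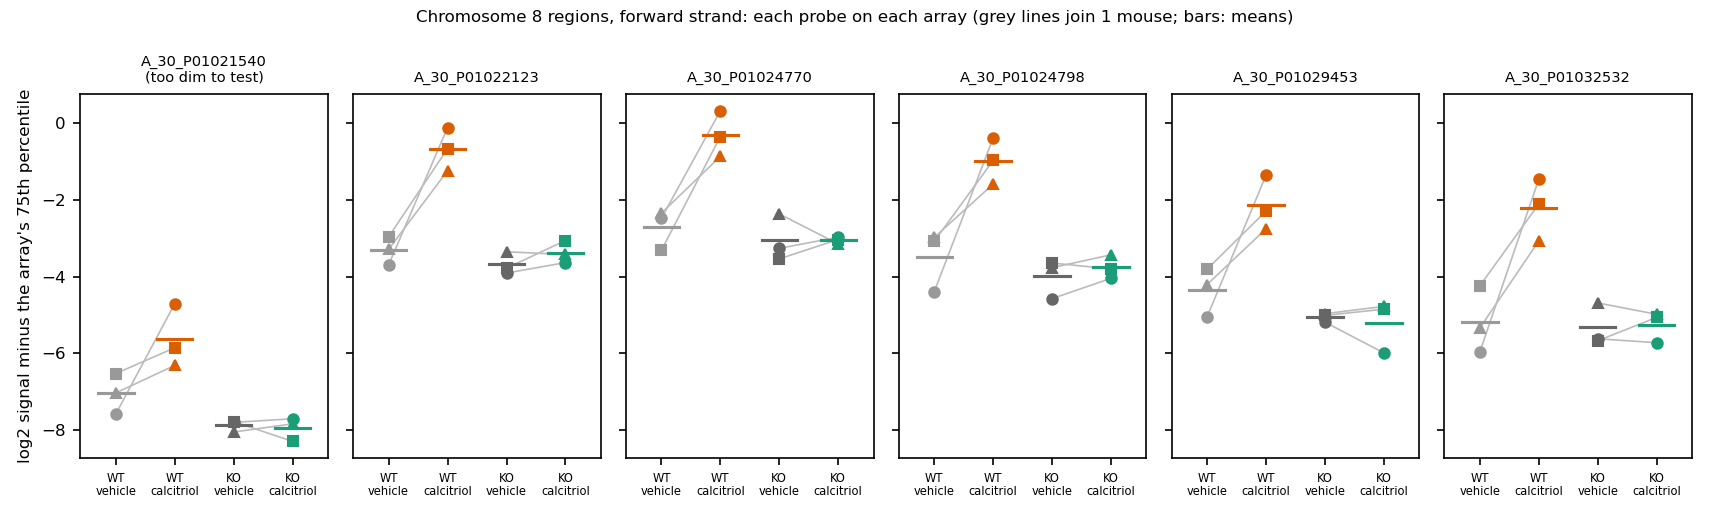
Level of the 6 forward-strand probes of chr8:89996710-90049453 (the first 3 panels) and chr8:90048940-90049461 (the last 3) on each array (vertical axis, log2 signal minus the array's 75th percentile), with symbols for mice 1, 2 and 3, grey lines joining the arrays of a mouse and bars for the mean of 3 arrays. In the 5 tested panels the wild-type calcitriol arrays are the highest; A_30_P01021540, the first panel, was too dim to test.

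With the mouse as a block, 7 further region probes passed in wild type, in 3 loci; they were named after their values were seen. None of the 7 was called with the block once wild-type mouse 1, 2 or 3 was left out. On the reverse strand at chr13:94182877-94203935 and the overlapping chr13:94200051-94200598, 5 probes differed by 0.53 to 0.65. Probe A_30_P01028309 read 0.90, 0.43 and 0.58 with vehicle and 1.55, 1.01 and 1.29 with calcitriol, so that each mouse was higher by a similar amount. Its difference was 0.65 ± 0.08 with the replicate block (limma adjusted p 0.0164, against 0.960 without it), and -0.11 ± 0.08 in the knockout. Averages over the probes of these 2 reverse-strand intervals passed with the block as well, at 0.61 over 4 probes (limma adjusted p 0.0399) and 0.56 over 3 probes (0.0217). Without the block their limma adjusted p values were 0.996 and 0.9999. The averages include the 5 probes above, so they are no separate support.

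At chr19:53517903-53540753, forward probe A_30_P01024775 read -1.41, -1.52 and -2.10 with vehicle and -0.51, -0.71 and -1.18 with calcitriol in wild type. It differed by 0.88 ± 0.11 with the block (limma adjusted p 0.0156, against 0.960 without it) and by 0.03 ± 0.11 in the knockout. In each group the array of mouse 3 was the lowest. The only region probe that passed with a lower level lies at chr17:56687541-56694616 on the reverse strand. Probe A_30_P01026224 there read 1.43, 1.76 and 0.94 with vehicle and 0.84, 1.34 and 0.37 with calcitriol, a difference of -0.52 ± 0.08 with the block (limma adjusted p 0.0301, against 0.960 without it). Its levels in the 2 groups overlap, while each mouse was lower with calcitriol.

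In knockout organoids no region probe was called for calcitriol, with or without the replicate block, against a background of 0% of all probes. At an unadjusted p under 0.05, limma found 799 region probes, 784 of them higher with calcitriol, and 792 with the block. That is 10.5% of region probes, against 3.84% of other probes. With arrays scaled to their median the count was 243, and the median region difference was -0.01 in place of 0.28. It was 0.09 with another background correction and 0.05 with quantile normalization, so its size depends on the processing. The medians of other probes were lower each time, at -0.27, 0.01 and -0.02. The 5 region probes of smallest p were all higher with calcitriol and all had an adjusted p of 0.907. Probe A_30_P01030159 at chr5:92548501-92566401 (F) read -2.31, -1.96 and -1.52 with vehicle and -0.25, -0.71 and -0.82 with calcitriol. Probe A_30_P01020180 at chr8:125031410-125075960 (R) read -1.35, -0.84 and -1.21, and -0.07, -0.31 and -0.53. The other three, at chr11:18479852-18485704 (R), chr7:16584852-16657252 (F) and chr13:28537223-28539860 (R), differed by 2.02, 0.90 and 1.76. In each of the 5 the 3 calcitriol arrays were above the 3 vehicle arrays. As the 5 were picked by their p, this separation is no support for a difference. Leaving out mouse number 3 in all groups gave 30 region calls among 139 over all probes, the 30 all higher with calcitriol, and leaving out number 1 or 2 gave none. Of the 3 knockout vehicle arrays, those of mice 1 and 2 are alone on slide 1, so that without mouse 3 slide and treatment cannot be told apart.

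The calcitriol effect differed between genotypes for 4 region probes, all forward probes of chr3:90425270-90435820, against a background of 0.0479% of all probes, or 16 of 33406. The wild-type effect exceeded the knockout effect by 2.22 ± 0.23 for A_30_P01022270, 2.15 ± 0.23 for A_30_P01021250, 2.02 ± 0.30 for A_30_P01024183 and 1.84 ± 0.22 for A_30_P01018786. The limma adjusted p values were 0.00415, 0.00415, 0.0491 and 0.00945. With the replicate block the same 4 probes were called, against a background of 0.207%. With arrays scaled to their median 7 region probes were called, 6 with a higher and 1 with a lower wild-type effect, among 27 over all probes. The fifth forward probe, A_30_P01023502, differed by 1.31 ± 0.26 (limma adjusted p 0.297). At chromosome 8 the difference was 2.34 ± 0.44 for A_30_P01022123 and 2.41 ± 0.52 for A_30_P01024770, with limma adjusted p values of 0.234 and 0.467. No array on its own removed all 4 calls; leaving out wild-type calcitriol array 1 or 2 left 2 of them. The call of A_30_P01024183 was lost in 22 of 32 alternatives, among them leaving out any single array but wild-type vehicle array 2. Leaving out mouse number 1, 2 or 3 in all groups left none of the 4. With the slide as a block none passed, at differences of 2.13, 2.13, 2.00 and 1.64 in the order above. Without wild-type vehicle arrays 2 and 3 none passed either (limma adjusted p 0.0780 to 0.121), at 2.23, 2.15, 2.22 and 1.89.

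Without added hormone, no region probe was called between the genotypes, against a background of 0.00299% of all probes (1 of 33406). Limma found 1316 region probes at an unadjusted p under 0.05, of which 1294 were lower in the knockout. That is 17.3% of region probes, against 6.95% of other probes. With arrays scaled to their median the median region difference turned from -0.39 to 0.36, so the direction rests on the scaling. With the replicate number as a block, no region probe was called, against a background of 0.012%. The 5 region probes of smallest p were all lower in the knockout, with limma adjusted p values of 0.392 to 0.522. Probe A_30_P01020562 at chr3:95443575-95462543 (R) read -2.26, -2.66 and -3.84 in wild type and -5.07, -4.89 and -4.74 in the knockout. Probe A_30_P01033614 at chr9:24292762-24307562 (F) read -3.68, -2.79 and -2.65, and -7.54, -6.54 and -4.67. The wild-type vehicle arrays of both were higher than the wild-type calcitriol arrays as well, which read -4.94, -4.94 and -5.00, and -5.43, -5.25 and -4.71. A_30_P01029946 at chr15:10363330-10371830 (R) differed by -2.78, with 1 of 3 knockout arrays above background. A_30_P01019620 at chr4:128207615-128242898 (R) was above background on 2 wild-type and 0 knockout arrays. A_30_P01023641 at chr6:120670699-120677449 (F) was above background on no vehicle array of either genotype, so no difference is given.

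Under calcitriol, 11 region probes were lower in the knockout and none higher, against a background of 0.207% of all probes (0.145% of region probes). They were the 5 forward probes of chr3:90425270-90435820, 2 of chr8:89996710-90049453, 3 of chr8:90048940-90049461 and 1 of chr3:27837825-27880925. This comparison shares its wild-type calcitriol arrays with the treatment comparison above. The differences on chromosome 3 at chr3:90425270-90435820 ran from -2.37 ± 0.16 (A_30_P01022270, limma adjusted p 3.55e-05) to -1.49 ± 0.18 (A_30_P01023502, 0.00367). On chromosome 8 they ran from -3.07 ± 0.46 (A_30_P01029453, limma adjusted p 0.0167) to -2.70 ± 0.31 (A_30_P01022123, 0.00269). Neither A_30_P01029453 nor A_30_P01032532 was well above background on all 12 arrays, so the size of their differences is uncertain. Over the alternatives these ran from -3.59 to -1.32 and from -3.61 to -1.29, and the calls were lost in 12 and 19 of 29. Leaving out single arrays gave 6 to 12 calls; the lowest came without wild-type calcitriol array 2, and 7 remained without wild-type calcitriol array 1, knockout calcitriol array 1 or knockout calcitriol array 2. Leaving out mouse number 1, 2 or 3 in all groups gave 5, 4 and 3.

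The interval chr3:27837825-27880925, 43101 bases long, was the only other place with such a call. Its forward probe A_30_P01032764 read -1.65, -2.41 and -2.63 in wild-type and -4.22, -3.96 and -3.85 in knockout organoids with calcitriol, a difference of -1.78 ± 0.30 (limma adjusted p 0.0326). With vehicle it read -3.82, -3.48 and -3.71, and -4.09, -4.31 and -4.65. All 5 forward probes of this interval were higher with calcitriol than with vehicle on all wild-type arrays, by 0.58 to 1.75, and none passed that test, with limma adjusted p values of 0.141 to 0.960. In the knockout they differed by 0.22 to 0.70. The interval was picked by a call that uses the same wild-type calcitriol arrays, so these wild-type rises are no separate support. The call of A_30_P01032764 was lost in 21 of 30 alternatives, among them scaling to the median, quantile normalization and leaving out any 1 of the 6 calcitriol arrays. The mean of the 5 probes differed by -1.48 (limma adjusted p 0.110, and 0.0494 with the replicate block).

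With the replicate number as a block, 24 region probes differed between genotypes under calcitriol, 16 lower and 8 higher in the knockout, against a background of 0.907%. All 11 were among them. By the labels a number shares sex and age between genotypes, though the arrays go against the sex labelled for numbers 1 and 2. Leaving out number 1, 2 or 3 from this fit gave 5, 4 and 20 calls. The 13 added probes were named after their values were seen. Of the added lower ones, A_30_P01018968 at chr7:106529142-106529752 (R) read -3.07, -2.80 and -2.74 in wild type and -5.24, -5.16 and -5.08 in the knockout, a difference of -2.29 ± 0.41 (limma adjusted p 0.0292, and 0.0671 without the block). Genes of the same chromosome that were called lower in the knockout under calcitriol included Ceacam12, Cox7a1, Fgf15, Gdpd5, Klk11 and Mctp2. Their distances from the interval were not measured. The other added lower probes lie at chr19:53517903-53540753 and chr19:53535104-53536627 (F; -1.05 and -1.19), chr4:88583425-88584070 (R; -0.52) and chr3:27837825-27880925 (F; -2.04).

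The 8 higher probes lie in 4 places. At chr14:55433382-55452757 (R), A_30_P01026296 read 3.65, 3.15 and 3.02 in wild type and 4.33, 3.92 and 4.42 in the knockout with calcitriol. At chr5:96591892-96606467 (F), A_30_P01027478 read 3.81, 3.30 and 3.18, and 4.50, 4.11 and 4.49. These 2 intervals are on different chromosomes and gave nearly the same profile. Their 5 called probes differed by 0.94 to 1.06, with adjusted p values of 0.00566 to 0.0177 with the block and 0.196 to 0.229 without. With vehicle, A_30_P01026296 read 4.004, 3.44 and 3.60, and 4.43, 3.89 and 4.24, and A_30_P01027478 read 4.01, 3.42 and 3.81, and 4.41, 4.01 and 4.49. Whether the probes of the 2 places share sequence was not tested, so their levels are uncertain as those of separate transcripts. The remaining higher probes were 2 at chr17:56687541-56694616 (R; 0.56 and 0.57) and 1 at chr1:74084292-74138492 (F; 0.83).

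Beyond single regions, faint probes as a group shifted between the vehicle groups. The median difference between knockout and wild type with vehicle was -0.39 over the 7594 region probes tested and -0.03 over the 25812 other probes, and 18.3% of region probes and 44.6% of other probes were higher in the knockout. For calcitriol in the knockout the medians were 0.28 and 0.02. Under calcitriol the genotypes differed by medians of -0.01 and 0.02. At this scaling, both shifts were in comparisons that include vehicle arrays. Their cause was not tested.

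The shift was larger in dim than in bright probes of both kinds. All tested probes were divided by mean level into 4 bins of like size. In the dimmest bin, region probes had a median genotype difference with vehicle of -0.74 and other probes of -0.71. In the next bin they were -0.32 and -0.20, then -0.07 and 0.01, and in the brightest bin 0.02 and 0.07. Of the region probes tested, 3611 lay in the dimmest bin and 323 in the brightest. Calcitriol in the knockout gave 0.43 and 0.40 in the dimmest bin and 0.03 and -0.01 in the brightest. Region probes above background on all 12 arrays had a median genotype difference with vehicle of -0.29, against -0.00 for such other probes. Without the 2 wild-type vehicle arrays with a raised signal floor, the medians were -0.10 and 0.03, and with the slide as a block -0.31 and -0.02. The sign of these medians depends on the scaling. With each array scaled to its median they were 0.36 and 0.73, so that region probes stayed below the others. With quantile normalization they were 0.09 and 0.03, and the order turned. The calcitriol medians in the knockout were -0.01 and -0.27 with scaling to the median and 0.05 and -0.02 with quantile normalization. The part of the slides and of the raised signal floor in these shifts was not tested further.

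**Figure D5:**
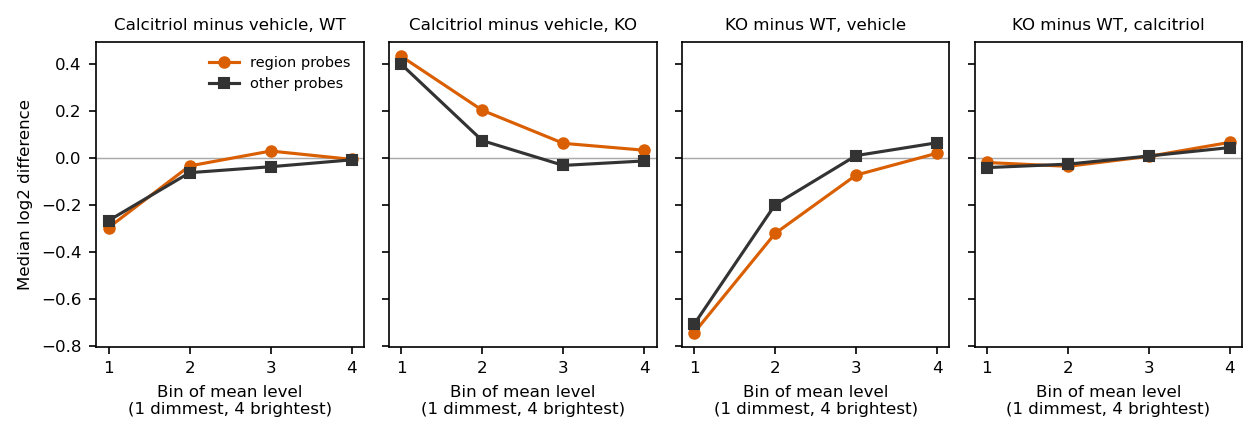
Median log2 difference (vertical axis) of region probes and other probes in each of 4 bins of mean level over the 33406 tested probes (horizontal axis), for 4 comparisons. In the dimmest bin region and other probes lie at -0.74 and -0.71 between knockout and wild type with vehicle, and at -0.02 and -0.04 between the genotypes with calcitriol.

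Probes of an interval often differed in direction. Among the 1186 intervals and strands with at least 3 tested probes, all probes had the same sign in 32.2% for calcitriol in wild type, 50.3% for calcitriol in the knockout, 60.2% between genotypes with vehicle and 37.4% with calcitriol. The higher shares are in the comparisons with a shifted median. The median range between the probes of an interval was 0.67 for calcitriol in wild type. Every probe was above 1 in 2 intervals, the forward strands of chr3:90425270-90435820 and chr8:90048940-90049461, and below -1 in 2, the forward strands of chr16:89961600-89971725 and chr7:91300649-91302183, of which no probe was called. The same 2 rising intervals were those with every probe below -1 between the genotypes with calcitriol.

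Chromosome 15 carries Vdr, and none of its 308 tested region probes was called in any comparison with or without the block. Between genotypes with vehicle, its region probes had a median difference of -0.49. The median was below 0 on every chromosome, from -0.25 on chromosome 17 to that of chromosome 15, with -0.44 on chromosome 12. None of the 244 tested region probes of chromosome X was called, and no interval lies on chromosome Y. Of 40 long noncoding RNA genes known by name, 23 had a probe and 21 were tested, and none was called in any comparison. Their median calcitriol difference in wild type was -0.03. Among them Neat1, the scaffold RNA of nuclear paraspeckles, differed by 0.10 ± 0.15, Malat1, a nuclear speckle RNA, by 0.14 ± 0.33, and Snhg12, a host transcript of small nucleolar RNAs, by -0.02 ± 0.20.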

How the data were processed

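RNA of 12 samples was measured on 12 one-colour Agilent arrays. The deposited values used are processed signal intensities on a linear scale, background-subtracted by Feature Extraction 11.5.1.1, per the file headers; probe intervals are those of build mm9 in the same files. Each intensity was converted to log2, and the 75th percentile of its array was subtracted. Spots of a probe were averaged. Probes that passed the scanner's background call throughout at least 1 group (3 of 3 arrays) were fitted with limma 3.58.1 in R 4.3.3 (4 group means over 12 arrays, variance trend, Benjamini-Hochberg adjustment, threshold 0.05); errors are standard errors of that fit. The fitting code was tested on simulated data. The arrays' number limits the precision.

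A culture of each mouse was split between treatments per the labels' protocols, so the mouse pairs the arrays. Over all tested probes, deviations from the group means of the same mouse correlated at 0.301 to 0.570 in wild type and 0.0955 to 0.556 in knockout organoids. Over region probes alone the correlations were lower, at 0.102 to 0.551 in wild type and 0.0235 to 0.403 in knockout organoids. For genotype the pairs share a number, labelled with 1 sex and age. Their correlations under calcitriol were 0.320 to 0.385 over all tested probes and 0.195 to 0.303 over region probes.

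Named probes were the called ones with 1 direction in every mouse, or without overlap between groups (at most 12 per direction). Where fewer than 5 passed, those called with the block (at most 6 per direction) and then the 5 of smallest p were added. An "at least" fold sets the bright group against the lowest signal measured above background. Members, lists and rules were chosen with earlier results of these data known. Alternatives covered background correction, scaling, filters, the slide, the block, probe averaging and left-out arrays.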

Additional observations from a re-analysis of the deposited data

Results flagged for a closer look

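The calcitriol effect differed between the genotypes, by limma's test of the difference itself, for 4 forward-strand probes of chr3:90425270-90435820. That is 0.0527% of the region probes tested, against 0.0479% of all 33406 probes. The wild-type effect exceeded the knockout effect by 2.22 for A_30_P01022270, 2.15 for A_30_P01021250, 2.02 for A_30_P01024183 and 1.84 for A_30_P01018786 (log2). The adjusted p values were 0.00415, 0.00415, 0.0491 and 0.00945, and 0.00464, 0.00464, 0.00598 and 0.0139 with the replicate block. For all 4, each of the 3 wild-type mice was higher with calcitriol. None of the 4 was called with the slide as a block, or with mouse number 1, 2 or 3 left out of all groups.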

How the results depend on the processing

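Counts of called region probes depended on the arrays and on how probes were combined, and none of the probes named from the fit without a block, or for their p, changed direction under the alternatives; probes called only with the block were not refitted under each. Calcitriol in wild type gave 8 calls: 14 with the replicate block, 18 with scaling to the median, 2 with the highest probe per interval and strand, 3 with the slide as a block, and 0 on the largest slide alone. Leaving out arrays gave 0 to 31, and 4 to 7 with the replicate block. Calls over all probes moved as well, at 54 in the main fit, 268 with the replicate block and 91 with scaling to the median. Calcitriol in the knockout gave 0, and 0 to 30 with arrays left out. The difference between genotypes in the calcitriol effect gave 4 calls, and 4 with the replicate block: 7 with scaling to the median, 1 with the highest probe, 0 with the slide as a block and 0 on the largest slide. Leaving out arrays gave 0 to 4, and 2 to 4 with the block. Genotype with vehicle gave 0, also with the replicate number as a block. There the numbers' correlations were 0.613, 0.0981 and 0.373 over all tested probes. Over region probes they were 0.545, -0.0721 and 0.277, so not all pairs deviate together. Genotype with calcitriol gave 11: 24 with the replicate block, 3 with the highest probe, 7 with the slide block and 3 on the largest slide. Leaving out arrays gave 3 to 12, and 4 to 20 with the block (5, 4 and 20 without replicate 1, 2 and 3). The alternatives chosen after seeing the data were the mean per interval and strand (2, 0, 1, 0 and 3 calls in this order), a common floor, and leaving out the wild-type vehicle arrays 2 and 3 (18, 0, 1, 2 and 11 calls; the 18 were 7 higher and 11 lower, and the 1 was none of the 4). Fewer probes are tested with 1 value per interval; for the other changes the cause was not tested. Faint signal limits region probes: 8184 were above background on some arrays only.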
